A study of Rattus norvegicus with 4 samples.

Results

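The 10 genes described here, of fat cells and of fatty acid synthesis, were followed through the recovery of a rat leg muscle from ischemia. They are 7 fat cell markers, Adipoq, Retn, Fabp4, Plin1, Lpl, Pparg and Lep, and 3 enzymes of lipid synthesis, Scd, Fasn and Acaca. They were chosen by name: 16 probes of the 41012 on each array carried the name of a member, with Plin standing for Plin1 and with Scd1 and Scd2 both standing for Scd. That gave 11 names of the 35655 on the array, 7 fat cell markers and 4 enzymes.

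Each of 4 Agilent 2-colour arrays held 1 injured and 1 sham sample of the gracilis, an adductor of the thigh, from male Sprague-Dawley rats. The injured muscle had 4 h of ischemia and then 1, 3, 7 or 14 days of reperfusion, and was labelled with Cy5. The sham-operated control muscle was labelled with Cy3. Every day is therefore 1 injured muscle against 1 sham muscle, with no dye swap and no replicate, so no difference on a single day could be tested and the number of arrays limits the precision. The labels give neither the rats' age nor whether 1 sham RNA served all arrays. The array of day 14 was scanned in another session than the other 3, and day and session cannot be told apart. The scanner software called 64.4% to 68.7% of probes well above background for the injured samples and 34.7% to 47.3% for the sham samples.

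White fat cells store triglyceride in a droplet coated by perilipin 1 (Plin1) and secrete hormones such as adiponectin (Adipoq), leptin (Lep) and, in rodents, resistin (Retn). Their formation is driven by the nuclear receptor Pparg, whose targets include the fatty acid carrier Fabp4 and lipoprotein lipase (Lpl), the enzyme that frees fatty acids from circulating triglyceride. Fabp4, Lpl and Pparg are not specific to fat, since macrophages carry all of them, capillary endothelium carries Fabp4 and muscle fibres make Lpl. New fatty acids are built in the cytosol: acetyl-CoA carboxylase (Acaca) makes malonyl-CoA, fatty acid synthase (Fasn) joins the units into palmitate, and stearoyl-CoA desaturase (Scd) puts in a double bond. The factor Srebf1 turns these enzymes on, and its relative Srebf2 does so for cholesterol synthesis. Injured muscle can gain fat, which arises from fibro-adipogenic progenitors in its connective tissue.

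Several fat cell markers were each read by a single probe, a strand of 60 bases, and for these the whole reading rests on the sequences that follow. They are shown because Adipoq and Fabp4 passed 2-fold on some day, while Pparg did not and Plin1 and Lep lay at or near background. They lie in the coding part of their transcripts and are in lower case throughout, 5′ to 3′.
Adipoq: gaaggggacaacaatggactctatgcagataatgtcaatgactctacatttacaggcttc
Fabp4: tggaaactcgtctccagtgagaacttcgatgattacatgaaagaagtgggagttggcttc
Plin1: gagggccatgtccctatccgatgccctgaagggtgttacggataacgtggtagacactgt
Pparg: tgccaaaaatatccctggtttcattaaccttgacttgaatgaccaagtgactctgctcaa
Lep: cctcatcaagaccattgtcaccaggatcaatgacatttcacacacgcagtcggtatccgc
On the rn4 build of the files the Adipoq probe lies at chr11:79908475-79908534, the Plin1 probe at chr1:135499035-135499094, both on the minus strand, and the Pparg probe at chr4:151600180-151600239 on the plus strand. The Fabp4 probe at chr2:93536175-93538589 and the Lep probe at chr4:55943962-55945586 each join pieces of exons across introns. The Retn probe lies at chr12:2499645-2499704. The Scd1 probe lies at chr1:249459057-249459116 on the minus strand and the 3 probes of Scd2 between chr1:249365537-249365596 and chr1:249370837-249370896 on the plus strand. Both desaturase genes thus lie on chromosome 1, on opposite strands.

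A value below is the log2 ratio of injured to sham unless it is called a level. A level is the log2 brightness of 1 channel after normalization across the arrays, and it serves to compare the same probe between muscles, not 1 gene with another. A gene is called higher or lower when it differed at least 2-fold (1 on the log2 scale) from sham. This is a cut on size with no test behind it. Spots of the same probe had a median SD of 0.04 to 0.07 within an array, which is spot noise and not the spread between animals. Background brightness is close to a level of 6, so ratios of dim genes are compressed towards 0.

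On day 1 the members lay close to sham after loess. Of the 10 names measured, 0 were higher and 0 lower, where 1.24% of 22948 genes were higher and 4.92% lower. On day 3, 5 of 10 were higher and 0 lower (2.47% and 3.95% of 24466 genes). On day 7, 3 of 10 were higher and 0 lower (3.12% and 1.23% of 23488 genes), and on day 14, 4 of 10 were higher and 0 lower (3.15% and 1.57% of 23744 genes). The members differed in which days they did so. With the mean sham level of all 4 arrays as the reference the count of day 3 was 3, and it was 2 with the mean over all probes of a gene. With arrays only centred on their median the count of higher members on day 1 was 4. In whole muscle, more cells of a type and more RNA per cell cannot be told apart, nor can fewer cells and less RNA per cell.

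**Figure D1:**
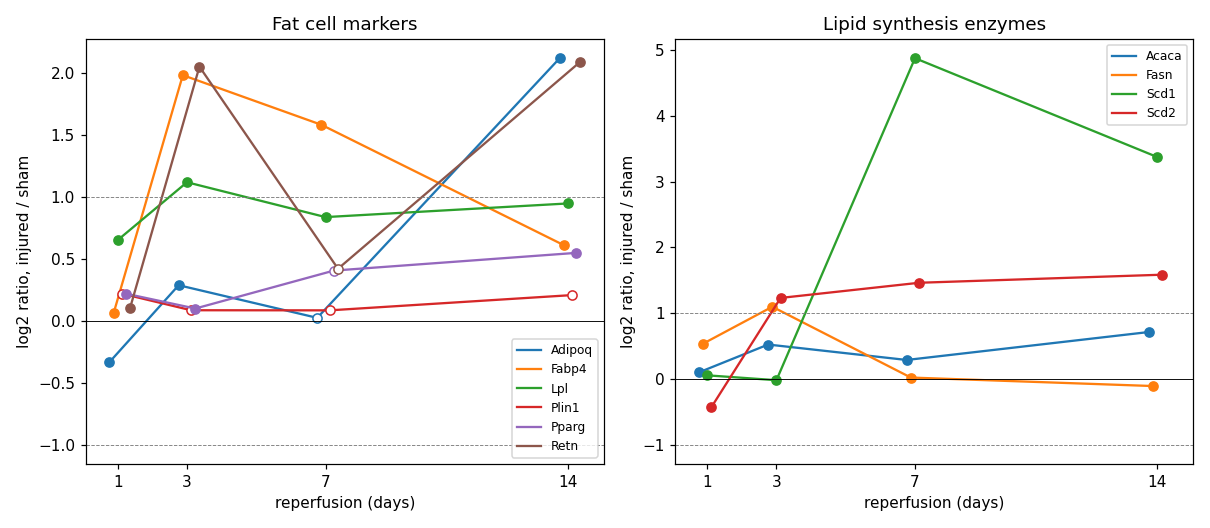
Log2 ratio of injured to sham muscle (vertical axis) against days of reperfusion (horizontal axis), 1 array a day, for fat cell markers (left) and lipid synthesis enzymes (right), each by its brightest probe. Open points had a sham spot not well above background, dashed lines mark 2-fold, points are shifted slightly sideways, and Lep, below background throughout, is left out. Retn is high on days 3 and 14, Adipoq on day 14 alone, and Scd1 reaches 4.88 on day 7.

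Among the hormones of fat cells, adiponectin was higher on day 14 alone. The Adipoq level in injured muscle was 6.53, 7.32, 6.87 and 9.21 on days 1, 3, 7 and 14, against 6.87, 7.03, 6.85 and 7.09 in sham. The injured level of day 14 stood above every sham level, and those of the other days lay close to their own sham. The ratios were -0.33, 0.29, 0.02 and 2.12, the last a 4.35-fold difference. On day 7 the sham spot was not well above background. The deposited ratio of day 14 was larger, at 3.22.

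Resistin was higher on days 3 and 14 and not in between. The Retn level in injured muscle was 6.68, 9.07, 7.28 and 9.00, against 6.57, 7.02, 6.86 and 6.91 in sham. Days 3 and 14 were thus more than 2-fold above all 4 sham muscles, while days 1 and 7 were near them. The ratio was 0.11 on day 1, 2.05 on day 3 (4.15-fold), 0.42 on day 7 and 2.09 on day 14 (4.27-fold). The sham spot of day 7 was not well above background. In the deposited ratios days 3 and 14 were at 3.30 and 3.39, and day 7 at 1.15. Retn and Adipoq therefore had like ratios on day 14 and unlike ones on day 3.

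Leptin was not well above background in either channel on any day, so it has no ratio. Its levels ran from 5.99 to 6.28 over the 8 channels.

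Fabp4, the carrier of fatty acids in the cytosol of fat cells, was higher on days 3 and 7 after loess. Its injured level was 9.65, 11.67, 11.46 and 10.15, and its sham level 9.59, 9.68, 9.87 and 9.54. The sham muscles lay within 0.34 of each other, and the injured muscles of days 3 and 7 stood apart from them and from those of days 1 and 14. The ratios were 0.06, 1.98 (3.95-fold), 1.58 and 0.61. With arrays only centred on their median they were 1.16, 2.94, 2.33 and 1.29, past 2-fold on every day. Fabp4 was thus highest before Adipoq was.

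Lpl was modestly above sham on every day. Its injured level was 9.98, 10.28, 10.40 and 10.10, and its sham level 9.33, 9.16, 9.56 and 9.15. All 4 injured levels lay above all 4 sham levels, as they did for 4.89% of the 20529 genes measured on all arrays. Lpl was the single one of the 10 measured names of which this held, and the reverse held for 0 of them (4.74% of those genes). After loess the ratios were 0.65, 1.12, 0.84 and 0.95, past 2-fold on day 3 alone. With arrays only centred on their median they were 1.76, 2.02, 1.55 and 1.62, past 2-fold on every day. With the mean sham level of all arrays as the reference, day 3 was at 0.98 and day 7 at 1.10. The other probe of Lpl was lower throughout, at 0.49, 0.81, 0.40 and 0.73.

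Pparg, the regulator of fat cell formation, stayed within 2-fold of sham. Its injured level was 7.00, 7.04, 7.41 and 7.52 and its sham level 6.78, 6.94, 7.01 and 6.97. The ratios were 0.22 on day 1, 0.10 on day 3 and 0.55 on day 14, and 1.11 on day 14 by the deposited ratio. On day 7 the sham spot was not well above background, and the reading of 1.32-fold higher is not a firm lower bound. Plin1 was above background in the injured channel but not in the sham channel on all 4 days, with ratios from 0.08 to 0.22. After loess Plin1 was 1.16-fold higher on day 1 and 1.15-fold on day 14 over dim sham readings, so neither is a firm bound. The sizes depended on the scaling. With arrays only centred on their median Plin1 was at 0.11 and 0.16 on those days. The injured level of Plin1 ran from 6.45 to 6.63, close to background, which limits what could be seen of this gene. By the deposited ratio Plin1 was at 1.15 on day 1 and 1.53 on day 14.

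**Figure D2:**
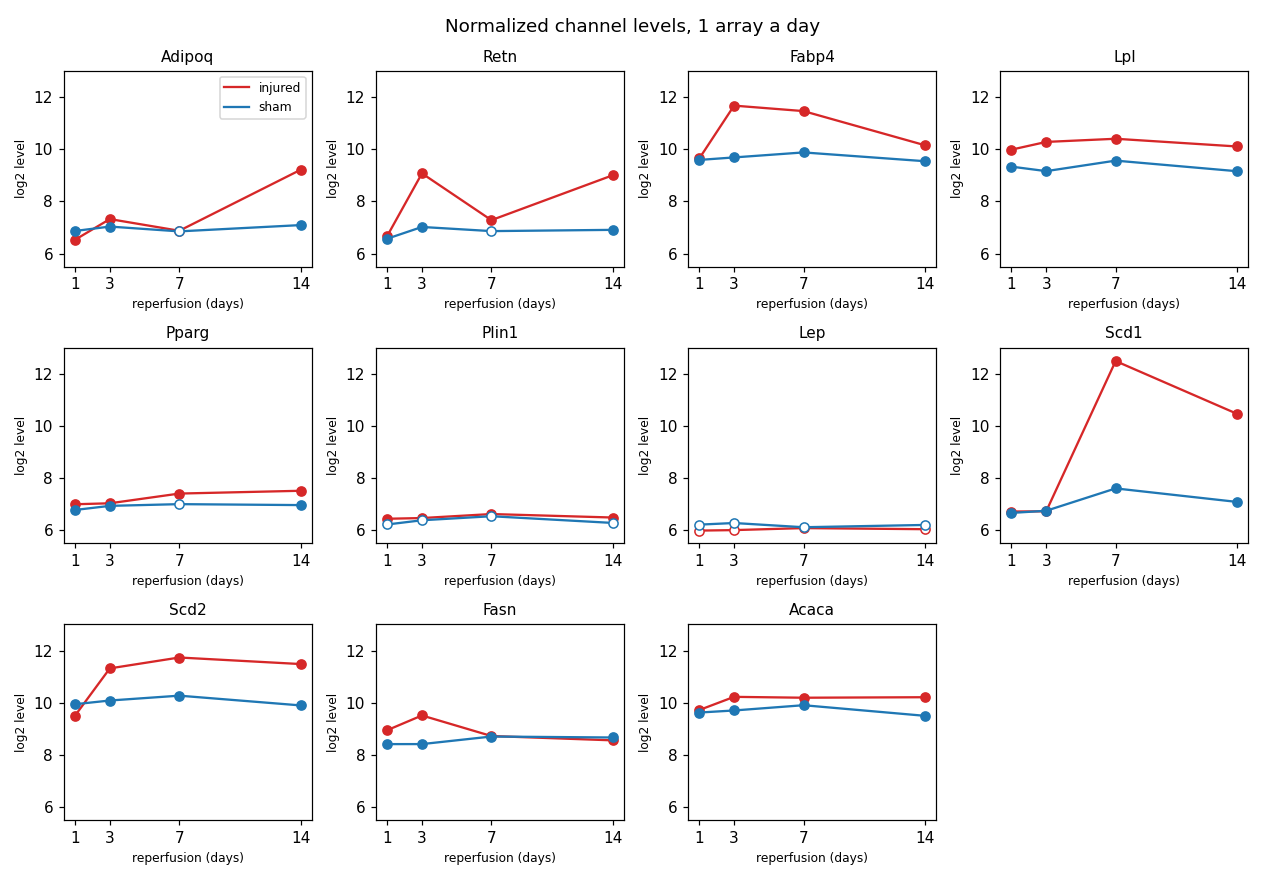
Normalized log2 level (vertical axis) of each member in the injured (red) and sham (blue) muscle against days of reperfusion (horizontal axis), 1 sample per point. Open points were not well above background. The sham lines span at most 0.94 (Scd1), less than the departures of the injured lines of Scd1, Scd2, Fabp4, Retn and Adipoq, and both Lep lines lie at background.

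The fat cell markers differed among themselves on every day after the first. Their median over the 6 measured was 0.16, 0.70, 0.41 and 0.78 on days 1, 3, 7 and 14, with 0, 3, 1 and 2 genes higher and none lower, while the median over all measured genes was 0.02, 0.03, 0.04 and 0.05. On day 14 the secreted Adipoq and Retn were more than 4-fold above sham while the droplet protein Plin1 stayed near background and Lep below it. Of the markers most particular to fat cells, Adipoq was above background in the sham muscle on 3 of 4 days, and Plin1 and Lep on 0.

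Other fat cell genes lay on both sides of sham, with medians of -0.11, -0.16, -0.08 and 0.13 on days 1, 3, 7 and 14. With arrays only centred on their median these medians were 0.08, 0.12, 0.03 and 0.27. The side of sham on days 1, 3 and 7 thus depended on the scaling. Of 25 other fat cell genes found by name, 20, 22, 20 and 21 were measured. Over all genes measured on the 4 days, 1.24%, 2.47%, 3.12% and 3.15% were higher and 4.92%, 3.95%, 1.23% and 1.57% lower. These shares belong beside the counts of every list here, and no list was tested against them. On day 1, 0 of the other fat cell genes were higher and 3 lower. The counts were 2 and 3 on day 3, 1 and 2 on day 7, and 5 and 0 on day 14. The 5 on day 14 were adipsin, Cfd, a complement protease that fat cells secrete, at 1.91, the glucose transporter Slc2a4 at 1.61, Sncg at 1.60, Nnat at 1.37 and the lipogenic regulator Thrsp at 1.19. Cfd had already been at 1.57 on day 3 and 2.39 on day 7, and Sncg was at 1.53 on day 3. The droplet protein Cidec stayed between 0.05 and 0.15 and hormone-sensitive lipase, Lipe, between -0.25 and 0.04. Car3 and Slc2a4, the latter among the 5 higher genes of day 14 as well as the lower ones, are also made by muscle fibres. Car3 was at -4.66, -5.23 and -2.80 on days 1, 3 and 7, with Slc2a4 at -2.74 and -2.67 on days 1 and 3, and Cidea at -1.71, -1.77 and -1.02 on days 1, 3 and 7. The other probe of Slc2a4 was at -0.55 on day 1 and at 0.97, within 2-fold, on day 14.

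Markers of macrophages, which share Fabp4, Lpl and Pparg with fat, lay far from sham on several days, while most endothelial markers stayed near it. The part of either cell type in these ratios was not tested. Of 16 macrophage markers 5, 7, 7 and 4 were higher and 1, 2, 3 and 7 lower on days 1, 3, 7 and 14, with medians of 0.46, 0.56, 0.62 and -0.85. The brightest, lysozyme (Lyz2), was at least 2.28-fold higher on day 1, where its injured spot was saturated, and at -0.22 on day 14. Past 4-fold were the integrin Itgam on days 1 and 3 (2.75 and 2.02), the complement genes C1qa, C1qb and C1qc on day 7 (3.55, 2.61 and 2.39) and day 14 (2.91, 2.43 and 2.14), Apoe on day 7 (2.54), and, as lower, Cd163 (-2.50) and Mrc1 (-2.06) on day 14. Of 12 endothelial markers 0, 0, 1 and 1 were higher and 0, 0, 1 and 1 lower, and their medians lay between 0.09 and 0.15. The brightest of them was Fabp5, at -2.49 on day 14. Pecam1 and Cdh5, both known in endothelium, stayed within 2-fold of sham. Cdh5 was dim, with levels of 6.76 in injured and 6.70 in sham muscle on day 1.

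Markers of fibro-adipogenic progenitors had medians of -0.69, 1.19, 1.12 and 1.37, with 4 of 9 lower on day 1 and 6, 5 and 5 of 10 higher on days 3, 7 and 14. Their receptor Pdgfra was at 1.67 on day 3 and within 2-fold on the other days. The collagens Col3a1, the brightest of the list, and Col1a1 were at -2.42 and -2.54 on day 1, and with saturated injured spots they were at least 6.31-fold and 9.63-fold higher on day 7 and 6.07-fold and 13.8-fold on day 14. The other progenitor markers past 4-fold were Dpt at 2.37 and Mfap5 at 2.15 on day 14 and Lum at 2.75 on day 7. The other Mfap5 probe was at 0.18 on day 14. Of 12 muscle fibre markers all 12 were lower on days 1 and 3, with medians of -3.26 and -4.29. On days 7 and 14 their medians were -0.49 and 0.39, with 1 higher and 4 lower on day 7 and 5 higher and 2 lower on day 14. The brightest, the fast troponin Tnnc2, was at least 28.7-fold lower on day 3, where its sham spot was saturated, and its injured spot was saturated on day 14. With arrays only centred on their median the progenitor list had a median of 0.01 on day 1 and the fibre list 0.49 on day 7, on the other side of 0.

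The enzymes of lipid synthesis parted from one another. Scd1, the desaturase whose name is now Scd in the rat, went from sham level to the farthest of all members. Its injured level was 6.72, 6.73, 12.49 and 10.46, and its sham level 6.67, 6.75, 7.61 and 7.09. Injured and sham muscle were alike on days 1 and 3, where both levels were dim and a difference would be compressed. On days 7 and 14 the injured level exceeded every sham level by more than 2 log2 units. The dim sham level compresses these ratios as well. The ratios were 0.05, -0.02, 4.88 (29.4-fold) and 3.37 (10.4-fold). The injured muscles themselves differed 54.3-fold between the lowest and the highest day. The sham level of day 7 was the highest of the 4, and with the mean sham level as the reference that day was at 5.46. The deposited ratios were 5.94 on day 7 and 4.63 on day 14.

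Scd2, the related desaturase, differed less than Scd1, and by its brightest probe sooner. By that probe the injured level was 9.51, 11.32, 11.73 and 11.48, and the sham level 9.95, 10.09, 10.27 and 9.90. The injured muscle of day 1 lay below every sham muscle, and those of days 3, 7 and 14 above every one. The ratios were -0.43, 1.23 (2.35-fold), 1.46 (2.75-fold) and 1.58. Day 1 was at 0.68 when arrays were only centred on their median, so its side of sham depended on the scaling. On day 3 Scd2 was thus higher by its brightest probe, while Scd1, dim on that day, was at sham level. The mean over all Scd2 probes was 0.54 on day 3, within 2-fold. The other probes of Scd2, which start at bases 1040 and 3047 of the transcript where the brightest starts at 4727, were dim and stayed within 2-fold, from -0.09 to 0.46, with sham spots not well above background on day 7 for both and on day 14 for the former. By the deposited ratios these probes were at 1.81 and 2.52 on day 7 and at 0.95 and 1.18 on day 14, and within 2-fold on days 1 and 3. Whether they passed 2-fold on the later days therefore depended on the processing.

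The sequences before the start sites of the desaturase genes are shown because these related genes had unlike time courses by the brightest probe of each. They are the 250 bases upstream of the RefSeq start in GRCr8, 5′ to 3′ on the gene's strand, at chr1:253231732-253231981 on the minus strand for Scd and at chr1:253118127-253118376 on the plus strand for Scd2. Capitals mark the CCAAT box (CCAAT, either strand), a site of the factor NF-Y that often stands beside Srebf sites.
Scd: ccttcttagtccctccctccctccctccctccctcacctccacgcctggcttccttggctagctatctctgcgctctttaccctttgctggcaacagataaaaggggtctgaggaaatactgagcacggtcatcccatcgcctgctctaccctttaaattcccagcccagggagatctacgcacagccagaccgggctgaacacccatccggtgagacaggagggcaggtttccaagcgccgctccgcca
Scd2: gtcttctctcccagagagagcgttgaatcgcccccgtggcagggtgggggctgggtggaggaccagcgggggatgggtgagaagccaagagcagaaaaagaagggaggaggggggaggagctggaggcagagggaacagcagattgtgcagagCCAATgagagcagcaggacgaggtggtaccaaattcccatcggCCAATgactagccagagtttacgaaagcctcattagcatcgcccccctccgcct
Scd2 holds 2 CCAAT boxes in this window and Scd holds 0. Of 33469 windows of this length 34.0% hold at least 1. Windows were at hand for 7 of the 11 names, and 5 of their 8 start sites held the box. The core of the sterol regulatory element (TCACNCCAC, either strand), found in 0.97% of windows, matched in none of the 8, and neither did TATAAA, found in 12.9%. A match here is a run of letters and not a bound site.

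By its brightest probe after loess, Fasn was higher on day 3 and near sham level from day 7. The injured level of its brightest probe was 8.95, 9.51, 8.73 and 8.56, and the sham level 8.42, 8.42, 8.71 and 8.67. The injured muscle of day 3 stood above all sham muscles, and that of day 14 lay among them. The ratios were 0.53, 1.10 (2.14-fold), 0.02 and -0.11, and day 3 was at 0.96 with the mean sham level as the reference. The other probe gave 0.49, 0.70, 0.24 and 0.58, so the probes lay on opposite sides of sham on day 14. When arrays were only centred on their median the brightest probe was at 0.50 on that day and at 1.50 on day 1, past 2-fold. Fasn was thus near sham by its brightest probe on the days when Scd1 was farthest from it.

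Acaca, which supplies malonyl-CoA to Fasn, was within 2-fold of sham after loess. Its injured level was 9.72, 10.23, 10.19 and 10.21 and its sham level 9.63, 9.71, 9.91 and 9.50. The ratios were 0.10, 0.52, 0.29 and 0.71 by the brightest probe and 0.03, 0.12, 0.04 and 0.59 by the other. This depended on the scaling: with arrays only centred on their median the brightest probe was at 1.21, 1.44, 1.00 and 1.40, and its deposited ratio of day 7 was -0.10, on the other side of sham.

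**Figure D3:**
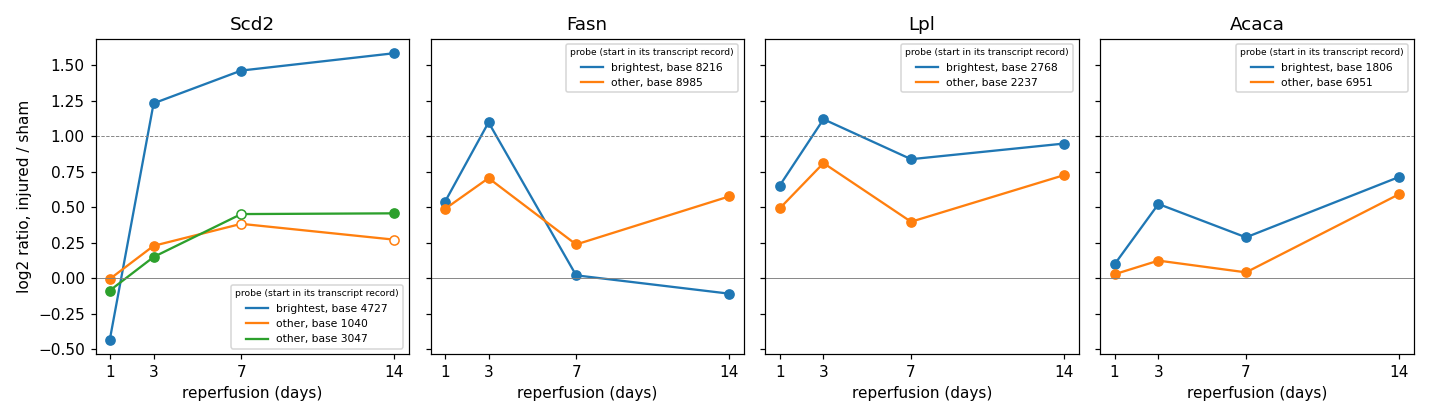
Log2 ratio of injured to sham (vertical axis) against days of reperfusion (horizontal axis) for the 4 members with more than 1 probe, each line 1 probe named by the base where it starts in its transcript record. Open points had a sham spot not well above background and the dashed line marks 2-fold. The brightest Scd2 probe stands apart from the other 2, and the Fasn probes lie farthest apart on day 14.

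The enzymes had medians of 0.08, 0.81, 0.87 and 1.15, with 0, 2, 2 and 2 of 4 higher. On days 7 and 14 these were the desaturases alone, Scd1 and Scd2. With 4 names in the list, the median on those days was the mean of Acaca and Scd2.

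Among the other genes of fatty acid synthesis, the regulator Srebf1 followed the days of Scd1. It was at 0.15, 0.36, 2.92 (7.57-fold) and 2.57 (5.94-fold), with an injured level of 9.68, 9.88, 12.73 and 11.95 against 9.53, 9.52, 9.81 and 9.38 in sham. Its other probe was at 1.95 on day 7 and 1.15 on day 14. The enzymes Acly, which makes cytosolic acetyl-CoA, and Elovl6, which lengthens palmitate, were instead higher on day 3, as was Fasn by its brightest probe. Acly was at 0.61, 1.50, 0.05 and -0.04 and Elovl6 at 0.54, 1.50, -0.70 and -0.70. The other Elovl6 probe was at 0.26 on day 3. Of 23 measured genes of this list 0 were higher and 2 lower on day 1, 2 and 3 on day 3, 2 and 1 on day 7, and 3 and 1 on day 14, with medians of -0.04, 0.18, 0.03 and -0.15. With arrays only centred on their median these medians were 0.50, 0.67, 0.47 and 0.22. The side of sham on days 1 and 14 thus depended on the scaling. The malic enzyme Me1 was at -2.56, -2.68 and -1.71 on days 1, 3 and 7, and its other probe at -1.19, -1.38 and -0.86. Acsl1, an acyl-CoA synthetase also of muscle, was at -1.69 and -1.71 on days 1 and 3 and at 1.19 on day 14, but its 4 probes ran from -1.69 to -0.13 on day 1, from -1.71 to -0.42 on day 3 and from 0.09 to 1.19 on day 14. Insig2 was at -1.14 on day 3, and Acsl3 at 1.07 on day 7 and 1.02 on day 14. With the mean sham level as the reference Acsl3 was at 0.30 on day 7. Insig1, which holds Srebf proteins back, was at -1.71 on day 14.

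Genes of cholesterol synthesis, targets of Srebf2, were on the other side of sham from Scd1 and Srebf1 in the later days. Their medians were 0.19 and 0.56 on days 1 and 3, and -0.51 on both days 7 and 14. On day 1, 1 of 22 was higher, squalene epoxidase, Sqle, at 1.01. On day 3, 4 of 22 were higher, led by Msmo1 at 1.38 and Acat2 at 1.36, with Sqle at 1.06, and 0 were lower. The other Acat2 probe was at -0.07 on day 3. On day 7, 2 of 21 were lower, Fdft1 at -1.06 and Sc5d at -1.04, and on day 14, 7 of 21, led by Sqle at -1.48, Idi1 at -1.26 and the synthase Hmgcs1 at -1.05. The other Hmgcs1 probe was at -0.42 on day 14. Srebf2 itself lay between -0.03 and 0.20. When arrays were only centred on their median these list medians were 0.10 on day 7 and -0.06 on day 14, so the direction on day 7 depended on the scaling.

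**Figure D4:**
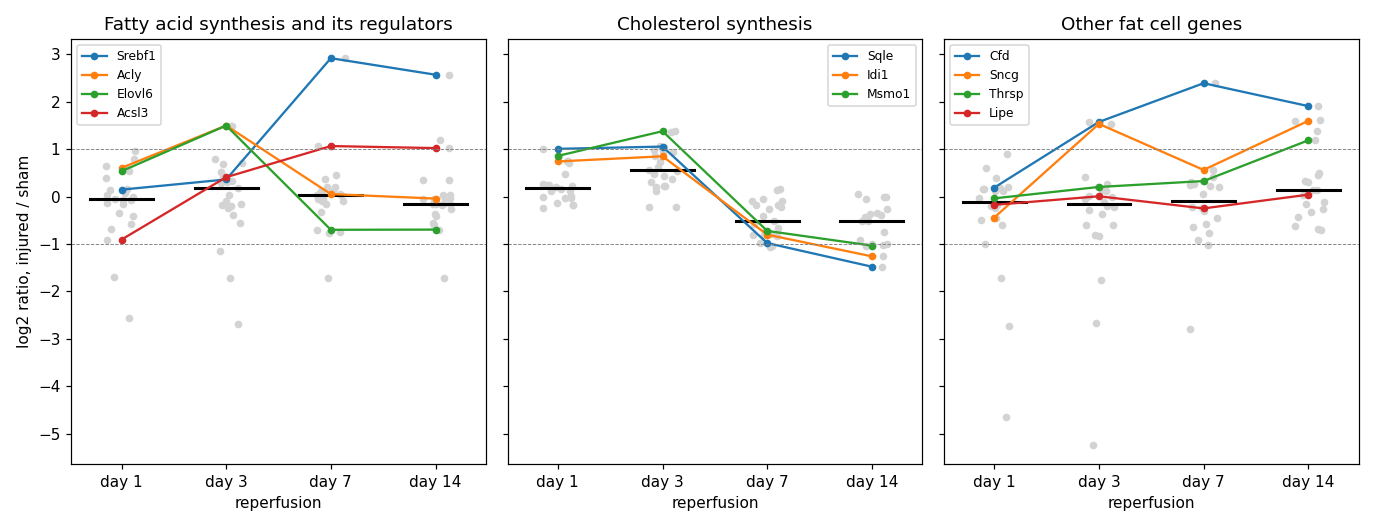
Log2 ratio of injured to sham (vertical axis) by day of reperfusion for genes of fatty acid synthesis, cholesterol synthesis and other fat cell genes (grey points, shifted sideways), with black bars for list medians, coloured lines for named genes and dashed lines at 2-fold. Srebf1 is high on days 7 and 14, when the cholesterol list has a median of -0.51.

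Regulators of fat cell formation other than Pparg lay on both sides of sham. Of 15, 16, 17 and 16 measured, 0, 2, 1 and 2 were higher and 2, 2, 1 and 1 lower. Klf15, known in fat and in muscle, was at -2.54 and -1.93 on days 1 and 3 and at 1.50 on day 14, and Klf5 was at -2.52 and -1.45 on days 1 and 3. Klf4 was at 1.11 on day 3, Cebpd at 1.02 and the inhibitor Dlk1 at -1.01 on day 7, and Ebf1 at 1.05 and Cebpb at -1.13 on day 14. Among receptors of fat cell hormones and partners of Lpl, 0, 0, 2 and 1 of 10 were higher and 1, 0, 0 and 1 lower. Gpihbp1, which anchors Lpl to the capillary wall, was at 1.98 on day 7. Cdh13, a binding protein of adiponectin, was at -1.29 on day 1, 1.35 on day 7 and 1.15 on day 14. Its other probe was at -1.22, 1.51 and 0.72 on those days. The Lpl inhibitor Angptl4 was at -1.12 on day 14. The adiponectin receptors Adipor1 and Adipor2 stayed within 2-fold.

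Genes most like Adipoq and Scd1 were sought by the distance between their 4 ratios (Euclidean, over the 20529 genes measured on all 4 days). Nearest to Adipoq were the carboxylesterase Ces1d at a distance of 0.33, with 2.33 on day 14, Mss51 at 0.35, a transcript named only TC593692 at 0.37, Pianp at 0.58 and Dlgap3 at 0.65. Scd1 had no close neighbour. The nearest were Ifi27l2b at 1.38, LOC690768 at 1.72, Igf2 at 1.89, Atp1b4 at 1.94 and Rtp4 at 2.01.

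A shared offset over the 4 days was the only difference with a test, limma's moderated test of the mean ratio against 0 with Benjamini-Hochberg adjustment over 20529 genes. The days are time points and not replicates. Of these genes 37 passed (0.18%), and 0 of the 10 members did. Lpl came nearest, with a mean of 0.89 ± 0.10 (SE, 4 arrays), above sham on 4 of 4 days and adjusted p = 0.076 by limma. Its adjusted p ran from 0.0061 to 0.33 over the alternatives, by limma. Scd1, with a mean of 2.07 ± 0.97 (SE), had adjusted p = 0.29 by limma.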

How the data were processed

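The deposited intensity values are mean spot and median local background brightness, read by Agilent Feature Extraction 10.5.1.1 per the file headers (9.5.3 per the submitters' processing notes). The deposited log10 ratios (Cy5 over Cy3) were background-subtracted and dye-normalized by that software, per the file headers. The authors' value table holds these ratios on the log2 scale. Spots were corrected here with normexp (offset 50) and loess within arrays, and levels with Aquantile scaling, in limma 3.58.1 (R 4.3.3). Control and outlier spots had weight 0. Each gene was represented by its brightest probe and counted as measured where either channel of that probe cleared background. Bounds replace folds where a channel was saturated, and a ratio with a dim sham spot is given as read. The genes and lists were chosen with earlier results of these data known. Beside the members, the text names per pathway list and day the 3 genes farthest from 0 past 2-fold. For fatty acid synthesis on day 3 it names every gene past 2-fold. Per marker list it names the brightest gene and those past 4-fold (fibre markers only as counts). Nnat, Thrsp, Cidec, Lipe, Srebf2, Adipor1, Adipor2, Pecam1, Cdh5 and Pdgfra were added after their values were seen. Names came from RefSeq's GRCr8 tables where they matched, as did promoters. Mean ratios were tested with limma (Benjamini-Hochberg, threshold 0.05), and the test was checked on simulated data. Alternatives changed normalization, background correction, reference, filter, probe choice and arrays.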

Additional observations from a re-analysis of the deposited data

Results flagged for a closer look

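Adipoq, Fasn and Scd2 lay on opposite sides of sham on different days, 1 array a day, and the difference between days was not tested. Adipoq was at -0.33 on day 1 and 2.12 on day 14 (log2 ratio of injured to sham). Fasn was at 1.10 on day 3 and -0.11 on day 14 by its brightest probe. Scd2 was at -0.43 on day 1 and 1.58 on day 14, also by its brightest probe. With arrays only centred on their median, Fasn on day 14 was at 0.50 and Scd2 on day 1 at 0.68, and neither then lay below sham.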

How the results depend on the processing

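Counts of members at least 2-fold higher than sham depended most on dye normalization. With arrays only centred on their median they were 4, 6, 5 and 7 on days 1, 3, 7 and 14. With the deposited ratios they were 1, 5, 4 and 6, against 0, 5, 3 and 4 after loess. On day 3 the count was 3 with the mean sham level as the reference and 2 with the mean over probes. Median centring put the median of all genes at 0.37, 0.29, 0.27 and 0.27 on the 4 days and 92.0%, 91.4%, 97.2% and 96.7% of calls on the higher side, against 20.2%, 38.5%, 71.7% and 66.8% after loess and 58.4%, 67.4%, 68.2% and 72.8% by the deposited ratios. Genes with a mean ratio different from 0 by limma numbered 37, and 8526 with median centring, 777 with the deposited ratios and 0 to 8 with 1 array left out (8 without day 14, 0 without each other day, where 2508 to 4262 had an unadjusted p under 0.05). For the members, 0 of 10 passed, with 6 past the threshold under median centring (Acaca, Fabp4, Fasn, Lpl, Pparg and Scd2) and Plin1 by the deposited ratios. The cause was not tested. No direction of a called member reversed under the alternatives run. No paired analysis was possible because each day has 1 injured and 1 sham sample, already set against each other on 1 array. Levels close to background limit Plin1 and Lep, and also Adipoq, Retn, Pparg and Scd1 in sham.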

Other observations

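Probes of genes related to members, chosen after their values were seen, gave other courses. LOC689095, described in the files as similar to Scd1, was at 0.00, 0.15, -0.35 and 0.44 on days 1, 3, 7 and 14, on the days when Scd1 reached 4.88 and 3.37. Retnlg, a relative of resistin, was at 0.33, 0.08, 0.42 and 0.06, with a sham spot never well above background, and Retnla was not well above background in either channel on any day.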
